A study of Mus musculus with 12 samples.

Results

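The gene set described here holds 10 genes of epithelial ion and water transport: Scnn1a, Scnn1b, Scnn1g, Cftr, Aqp1, Aqp3, Aqp4, Slc12a2, Atp1b1 and Nedd4l. They were chosen by gene name from the 55679 genes of the deposited table, and each name matched 1 protein-coding gene. Whole lungs and whole hearts of 6 male 129S6/SvEvTac mice aged 9 to 13 weeks gave 12 stranded total RNA libraries. There were 3 WT and 3 Adam19 KO mice, with 1 lung and 1 heart library from each. In the KO mice both copies of Adam19 carry an in-frame tdTomato construct in place of exons 6 and 7 in every tissue. A replicate number stands for 1 mouse of its genotype, whichever organ is described. No mouse identifier prefix was shared between WT and KO mice, so genotype and prefix cannot be told apart.

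Fluid is drawn out of the air spaces when epithelial cells move sodium across the cell layer and water follows. Sodium enters at the apical face through the epithelial sodium channel ENaC, built from an alpha (Scnn1a), a beta (Scnn1b) and a gamma (Scnn1g) subunit, and leaves at the basal face through the sodium pump, whose beta subunit is encoded by Atp1b1. Cftr is the apical chloride channel mutated in cystic fibrosis, and Slc12a2 is the sodium-potassium-chloride cotransporter NKCC1, which loads chloride into secreting cells. Aquaporins are water channels, of which Aqp1 is best known in capillary endothelium and red blood cells, Aqp3 in basal airway cells, and Aqp4 in airway epithelium and glia. Nedd4l encodes a ubiquitin ligase that tags ENaC subunits for removal from the membrane. The heart has no such fluid-absorbing epithelium, but its muscle depends on the sodium pump.

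In the GRCm39 assembly, Scnn1a spans chr6:125297622-125321906 and Cftr chr6:18170686-18322767, both on the forward strand. Scnn1b (chr7:121463946-121517737) and Scnn1g (chr7:121333545-121367755) lie on the forward strand of chromosome 7. Aqp1 spans chr6:55313068-55325540 on the forward strand, and Aqp3 spans chr4:41092722-41098183 on the reverse strand. Aqp4 (chr18:15522451-15544039, reverse), Slc12a2 (chr18:58011164-58080812, forward) and Nedd4l (chr18:65020724-65350899, forward) lie on chromosome 18, and Atp1b1 spans chr1:164264678-164285957 on the reverse strand.

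Levels are the deposited gene abundances on a log2 scale, where a difference of 1 stands for a doubling. For genes with 1 transcript they are log2 values of 1 + estimated reads with a shift for each library. Those of genes with several transcripts are not the log2 of the summed reads. Estimated reads per library summed to between 17674788 and 35862932. The Adam19 difference, KO minus WT, was −5.51 (standard error 0.33) in lungs and −3.14 (standard error 0.31) in hearts, with adjusted p = 0.000186 and 0.00558 (limma), which matches the labels. The tissues matched theirs, because the surfactant gene Sftpc lay at 16.32 to 17.28 in lungs and 4.78 to 7.71 in hearts, and the cardiac myosin gene Myh6 at 12.46 to 14.24 in lungs and 20.05 to 20.44 in hearts. Lung WT replicate 3 stood apart from the other lungs. It was the extreme lung, past Dixon's 95% limit, in 8.43% of the 16551 lung genes tested, against 0.266% to 1.25% for each of the other 5, so results that rest on it are given with and without it.

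Between the organs, 5 members were higher in the lung (Scnn1a, Scnn1b, Scnn1g, Cftr and Slc12a2), 1 was lower (Atp1b1), and Aqp1, Aqp3, Aqp4 and Nedd4l did not pass the thresholds. A gene passed with an adjusted p (Benjamini-Hochberg over all genes tested) under 0.05, a fold of at least 1.5 and a larger group mean of at least 6. Of all genes tested 30.1% were called higher in the lung and 21.2% lower, 51.3% together, so the count of members is set against a difference in most genes. The 6 lungs and the 6 hearts did not overlap in these 6 members, as in 34.8% (lung higher) and 22.6% (lung lower) of all genes. The median difference over all genes was 0.31, and scaling every library to the same median moved it to 0.094 and the split of calls over all genes from 58.7% to 50.5% higher. The numbers of members were the same under that scaling.

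ENaC was a lung channel in these data, and its subunits were the members furthest apart between the organs. Scnn1a lay at 11.52, 11.86 and 10.70 in WT lungs and at 11.62, 11.71 and 11.42 in KO lungs, but at 3.45, 4.06 and 5.30 in WT hearts and 4.54, 5.32 and 2.55 in KO hearts. Every lung was above every heart. Scnn1b lay at 10.98, 11.21 and 10.69 in WT lungs and 11.05, 11.41 and 10.88 in KO lungs, against 0.92, 0 and 2.38 in WT hearts and 3.34, 1.49 and 0 in KO hearts. Scnn1g ran from 11.45 to 11.80 over the 6 lungs, the narrowest range of the members in the lung, and lay at 1.86, 0 and 3.01 in WT hearts and 2.77, 2.65 and 0 in KO hearts. The lung-to-heart differences were 7.27 (95% interval 6.33 to 8.21) for Scnn1a, 9.68 (8.58 to 10.77) for Scnn1b and 9.91 (8.77 to 11.04) for Scnn1g. Their adjusted p-values were 6.69e-09, 1.84e-09 and 2.09e-09 in limma over 17666 genes. Leaving out 1 mouse at a time gave 6.91 to 7.69 for Scnn1a, 9.34 to 10.13 for Scnn1b and 9.48 to 10.25 for Scnn1g. Whether fewer cells of a type or less RNA per cell lies behind a lower level cannot be told apart in whole organs.

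**Figure D1:**
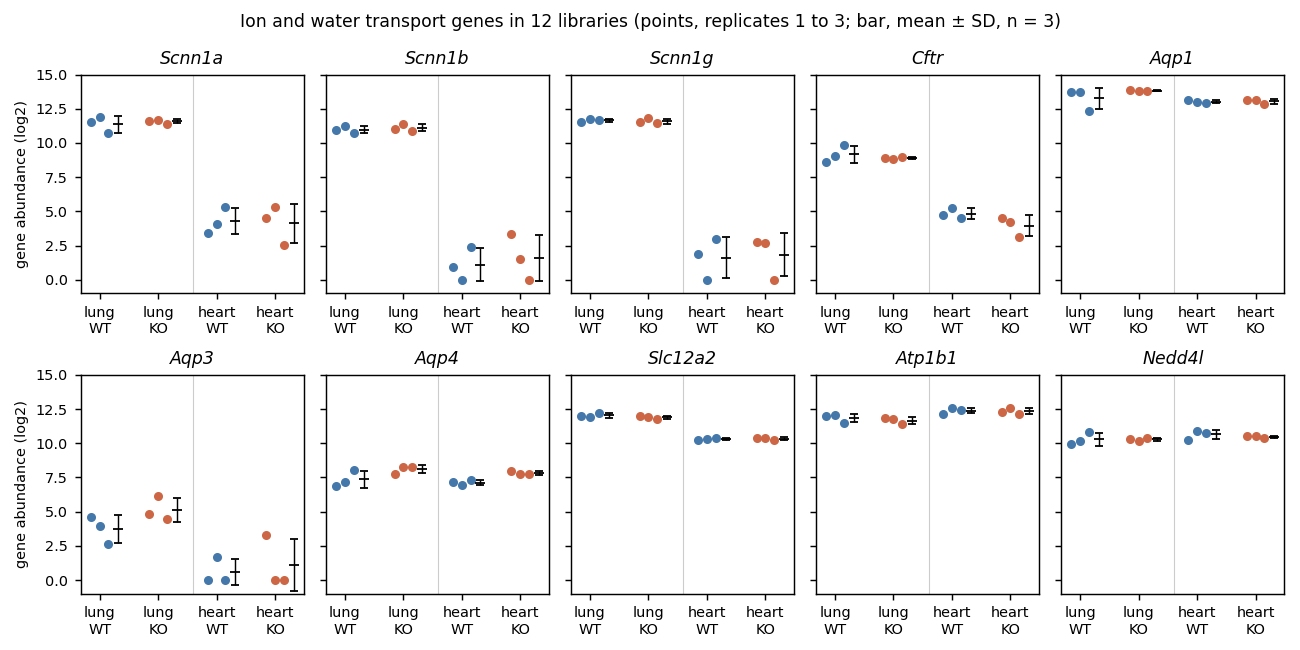
Deposited gene abundance (log2, vertical axis) of the 10 members in lung and heart of WT (blue) and KO (orange) mice, with 1 point per library and bars for mean ± SD (n = 3). The 3 ENaC subunits, Cftr and Slc12a2 are higher in every lung than in every heart, and Atp1b1 is lower. In the genotype comparisons most points of WT and KO overlap.

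The heart values of ENaC rest on very few reads. Over the 6 hearts, estimated reads summed to 81 for Scnn1a, 14 for Scnn1b and 18 for Scnn1g, against 20579, 13439 and 20372 over the 6 lungs. With the shift of each library applied, the lung-to-heart ratio of estimated reads was 214 (exact 95% interval 172 to 270) for Scnn1a, 810 (482 to 1480) for Scnn1b and 955 (604 to 1610) for Scnn1g. These intervals cover counting error only. Scnn1b and Scnn1g were listed at 0 in the same 2 hearts, WT replicate 2 and KO replicate 3, and a value of 0 leaves room for up to 3 estimated reads.

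Some genes typical of lung epithelium were also lowest in the hearts where these subunits were at 0, and others were not. The alveolar type 2 sodium-phosphate cotransporter Slc34a2 was lowest in heart WT replicate 2 (2.67) and KO replicate 3 (3.31), where Scnn1b and Scnn1g were at 0, and lay at 4.07 to 6.61 in the other 4 hearts. The club cell secretoglobin Scgb1a1 gave the same 2 lowest hearts (4.54 and 5.06). Scgb1a1 was highest in heart KO replicate 1 (10.23), the heart with the highest Scnn1b (3.34) and the highest Cdh1 (4.87), the epithelial cadherin. Sftpc (4.78 and 4.8), Ager (3.68 and 3.79), Scgb3a1 (2.24 and 1.84) and Cdh1 (1.88 and 2.2) were also lowest in WT replicate 2 and KO replicate 3. Dnah5 and Cldn18 had another order, with KO replicate 3 (3.04 and 2.41) above WT replicate 1. All 4 airway secretory markers were listed in both tissues, and their summed level ran from 5.31 to 8.70 in WT hearts and from 5.38 to 11.12 in KO hearts, against 17.59 to 18.61 in lungs. The 7 alveolar type 2 markers summed to 10.46 to 11.14 in hearts and 17.91 to 18.47 in lungs. Among the 4 basal and squamous markers, 2 were at 0 in all WT hearts and 1 in all KO hearts. The epithelial adhesion molecule Epcam had another order, at 0 in heart WT replicate 3, which listed both subunits, and at 1.73 and 1.54 in WT replicate 2 and KO replicate 3. In KO replicate 3 the summed ciliated (9.88) and alveolar type 1 (12.94) markers were below those of KO replicate 1 (10.05 and 12.99) and above those of the other 4 hearts. Both sums lay well above the heart values of Dnah5 (2.67 to 6.18) and Ager (3.68 to 6.36). Which genes carried these sums in hearts was not tested. Scnn1a did not give the same 2 lowest hearts either in the deposited values, since WT replicate 2 (4.06) was above WT replicate 1 (3.45). Its estimated reads before the shift were lowest in KO replicate 3 (4.1) and WT replicate 2 (7.9), with 12.1 in WT replicate 1. So its order depends on the shift and on few reads. Whether lung RNA in the heart libraries plays a part in the heart values was not tested.

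**Figure D2:**
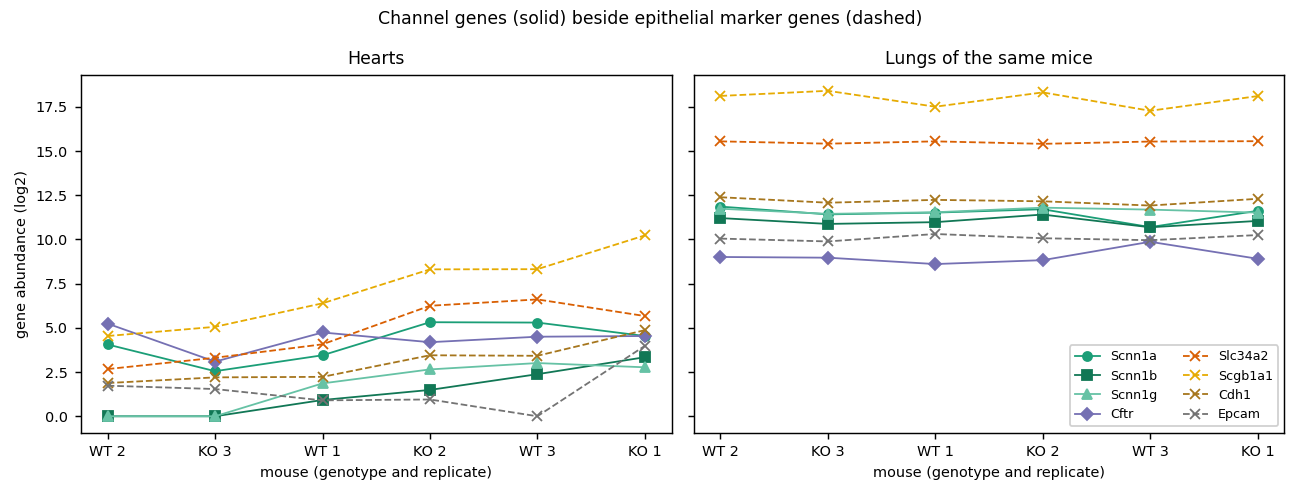
Gene abundance (log2, vertical axis) of ENaC subunits and Cftr (solid lines) and of 4 epithelial marker genes (dashed lines) in the hearts (left) and lungs (right) of the same 6 mice, in 1 order of mice in both panels. In hearts Scnn1b and Scnn1g start at 0 in WT replicate 2 and KO replicate 3, where Slc34a2 and Scgb1a1 are lowest, and Cftr does not follow that order.

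Within the lung the 3 subunits could be compared per length, as scaled estimated reads per kilobase of transcript. On this scale Scnn1g stood at 976 ± 94.8 (SD, n = 6), Scnn1a at 938 ± 240 and Scnn1b at 736 ± 131. Scnn1a was 0.966 ± 0.238 times Scnn1g, and Scnn1b was 0.753 ± 0.101 times Scnn1g. In 5 of the lungs the ratio of Scnn1a to Scnn1g lay between 0.982 and 1.14. Lung WT replicate 3 was the exception at 0.496, and it also had the lowest ratio of Scnn1b to Scnn1g, 0.562, with the other lungs at 0.755 to 0.857. The order of Scnn1g and Scnn1a was not settled (exact paired permutation test, two-sided p = 0.969), and Scnn1a exceeded Scnn1b in 5 of 6 lungs (p = 0.0625, where 6 pairs cannot go below 0.0312). In the heart the alpha subunit was higher per length than the other subunits, at 6.49 ± 4.16 against 1.04 ± 0.898 for Scnn1g and 0.896 ± 1.21 for Scnn1b. The heart value of Scnn1a depends on how few reads were divided among transcripts of unlike length. ENSMUST00000081440.14, with a mean of 94.5% of its reads in lungs, took 100%, 0% and 0% in WT hearts and 37.4%, 37.5% and 0% in KO hearts.

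Cftr was also higher in the lung, but not near 0 in the heart. It lay at 8.61, 9.01 and 9.87 in WT lungs and 8.91, 8.83 and 8.97 in KO lungs, and at 4.74, 5.24 and 4.50 in WT hearts and 4.54, 4.19 and 3.09 in KO hearts. The difference of 4.65 (95% interval 4.05 to 5.25, adjusted p = 6.05e-09, limma) corresponds to 25.1-fold, and the ratio of scaled estimated reads was 28.0 (exact 95% interval 23.2 to 34.2). The hearts held 109 estimated Cftr reads in all. The heart with the highest Cftr, WT replicate 2, had the lowest Slc34a2, and the heart with the lowest Cftr, KO replicate 3, had the next lowest. In heart WT replicate 2, 63.7% of the Cftr reads were assigned to ENSMUST00000115406.2, which took at most 3.23% in any lung. The value of 9.87 in lung WT replicate 3 was the highest of the lungs, with the others at 8.61 to 9.01.

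Slc12a2 was higher in the lung by a steady margin. Its level was 12, 11.89 and 12.19 in WT lungs and 11.98, 11.92 and 11.78 in KO lungs, against 10.26, 10.34 and 10.35 in WT hearts and 10.36, 10.41 and 10.21 in KO hearts. The groups were far apart relative to their spread, and the difference was 1.64 (95% interval 1.45 to 1.82), or 3.11-fold, with adjusted p = 1.58e-09 (limma). All reads of the gene fell on 1 transcript, ENSMUST00000115366.3, in every library.

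Atp1b1 went the other way. It lay at 11.96, 12.09 and 11.51 in WT lungs and 11.82, 11.76 and 11.40 in KO lungs, and at 12.16, 12.56 and 12.46 in WT hearts and 12.27, 12.57 and 12.15 in KO hearts. Every heart was above every lung. The difference of −0.60 (95% interval −0.89 to −0.32, adjusted p = 0.001, limma) is 1.52-fold, just past the fold threshold of 1.5. It was −0.50 without the WT replicate 3 mouse, −0.57 without KO replicate 2 and −0.58 without KO replicate 3, each under that fold with adjusted p of 0.00424, 0.00557 and 0.00345.

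Of the water channels, Aqp1 and Aqp4 differed less between the organs than the members above. Aqp1 was abundant in both, at 13.72, 13.70 and 12.36 in WT lungs, 13.85, 13.80 and 13.80 in KO lungs, 13.14, 12.96 and 12.92 in WT hearts and 13.11, 13.15 and 12.82 in KO hearts. Lung WT replicate 3 was below every heart, and the other 5 lungs were above every heart. The difference was 0.52 (adjusted p = 0.0323, limma), or 1.43-fold, and without the WT replicate 3 mouse it was 0.72 (adjusted p = 5.49e-05), which is past the thresholds. With every library scaled to the same median it was 0.30 (adjusted p = 0.2). The endothelial markers Pecam1 and Kdr were also higher in the lung, at 13.73 ± 0.15 against 12.09 ± 0.11 and at 13.25 ± 0.21 against 12.16 ± 0.14 (SD, n = 6), and all 5 endothelial markers passed the thresholds. Their part in the Aqp1 difference was not tested.

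Aqp3 was scarce everywhere. It lay at 4.60, 3.96 and 2.62 in WT lungs and 4.81, 6.14 and 4.43 in KO lungs, was listed at 0 in 4 hearts, and reached 1.65 in heart WT replicate 2 and 3.26 in heart KO replicate 1. The difference of 3.61 (95% interval 2.23 to 4.98, adjusted p = 0.000186, limma) did not count as past the thresholds, because the larger group mean was below 6. The hearts held 10 estimated reads in all and the lungs 165. Aqp4 overlapped between the organs, at 6.87 to 8.27 in lungs and 6.96 to 7.97 in hearts, with a difference of 0.27 (95% interval −0.15 to 0.68, adjusted p = 0.218, limma).

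**Figure D3:**
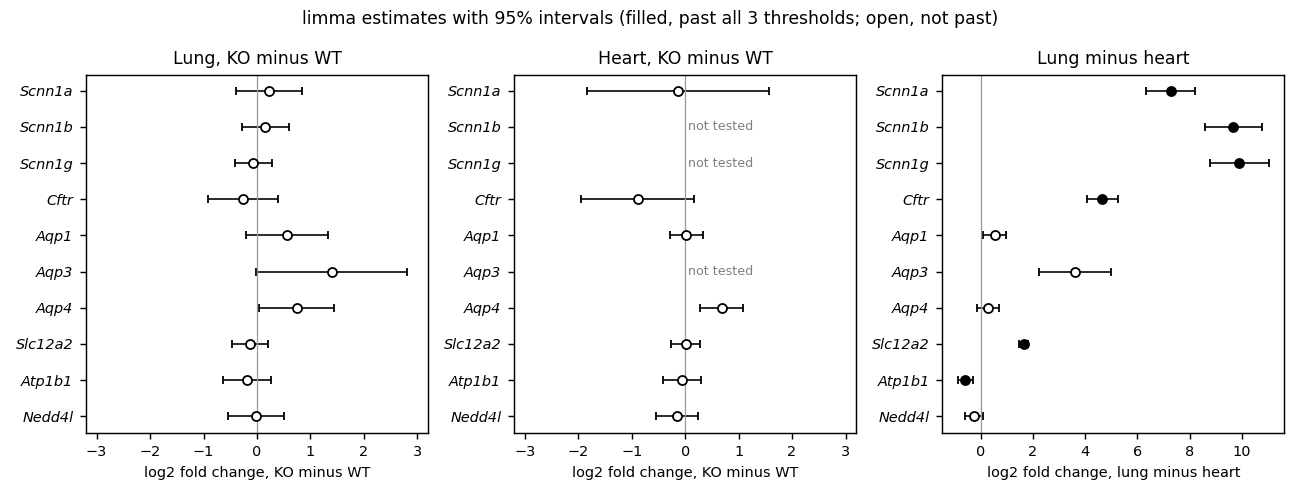
Estimated log2 fold changes with 95% intervals from limma (horizontal axes) for KO minus WT in the lung (left), KO minus WT in the heart (middle) and lung minus heart (right), with filled points past all 3 thresholds. No point is filled in the genotype panels, and within the heart panel the intervals of Scnn1a and Cftr are the widest.

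Per length, Aqp1 was the highest member in both organs, at 4220 ± 1210 reads per kilobase in lungs and 2800 ± 263 in hearts (SD, n = 6), followed by Atp1b1 at 1370 ± 242 and 2060 ± 272. In lungs the ENaC subunits came next, followed by Slc12a2 (498 ± 49.0), Nedd4l (399 ± 102), Cftr (88.2 ± 31.8), Aqp4 (43.7 ± 16.2) and Aqp3 (14.3 ± 10.9). Scnn1b and Slc12a2, and Slc12a2 and Nedd4l, kept their order in 5 of 6 lungs (exact paired permutation p = 0.0625 for both), so these neighbours were not separated. In hearts the order after Atp1b1 was Nedd4l (618 ± 93.0), Slc12a2 (160 ± 7.92) and Aqp4 (36.7 ± 10.8), and these levels did not overlap with their neighbours. Scnn1a and Cftr (3.53 ± 1.59) were not separated in hearts (exact paired permutation p = 0.219), nor were Scnn1g, Aqp3 and Scnn1b (p = 0.5 and 0.688).

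Nedd4l was the member in which the transcripts differed between the organs more than the gene level did. The gene value was 9.91, 10.16 and 10.82 in WT lungs, 10.33, 10.13 and 10.37 in KO lungs, 10.25, 10.92 and 10.74 in WT hearts and 10.53, 10.51 and 10.41 in KO hearts. The organs overlapped, with a difference of −0.27 (95% interval −0.61 to 0.06, adjusted p = 0.126, limma). When the scaled reads of all its transcripts were summed instead, the difference was 0.25 in the other direction (adjusted p = 0.0145), so no direction is given for the gene.

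The files list 35 Nedd4l transcripts. ENSMUST00000238376.2, a coding model of 2 exons and 1792 nucleotides inside the gene (chr18:65216125-65276917), took 17.4%, 12.6% and 20.9% of the gene's estimated reads in WT hearts and 22.3%, 18.7% and 22.0% in KO hearts. In lungs it took 2.39%, 2.01% and 1.5% in WT and 1.97%, 1.68% and 0.697% in KO mice, so every heart was above every lung. ENSMUST00000237644.2, with 17 exons at the 3′ side (chr18:65307138-65346392), took 23.5% to 30.1% in hearts and 1.42% to 13% in lungs. The 30-exon ENSMUST00000163516.9 took 11.7% to 22.4% in hearts and 4.85% to 9.0% in lungs. Its mean share, lung minus heart, was −9.91 percentage points. With shares taken per transcript length the difference was only −0.978 points, so the heart excess of this transcript depends on the measure. The retained-intron model ENSMUST00000224890.2 had the reverse pattern, 6.81% to 14.4% in lungs against 1.63% to 4.18% in hearts.

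Long coding models held most of the rest in the lung. ENSMUST00000235343.2 (31 exons), ENSMUST00000237410.2 (30 exons) and ENSMUST00000237854.2 (29 exons) took means of 22.3%, 12.1% and 11% of the gene in lungs and 1.93%, 0% and 0% in hearts, but all 3 were at 0 in lung KO replicate 3. The mean transcript length, weighted by reads per length and not by reads, was 3854 ± 725 nucleotides in lungs and 2032 ± 191 in hearts (SD, n = 6), without overlap. Over the 18 member transcripts that held at least 10% of their gene in an organ, none had an adjusted p under 0.05 in the exact paired permutation test, two-sided, and the 4 Nedd4l transcripts without overlap had p = 0.0312, the smallest that 6 pairs allow, and adjusted p = 0.113. In the unpaired exact test of 6 lungs against 6 hearts, the same 4 had p = 0.00216 and adjusted p = 0.00779. Shares of transcripts that overlap in sequence are estimates and depend on how Salmon divides shared reads.

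**Figure D4:**
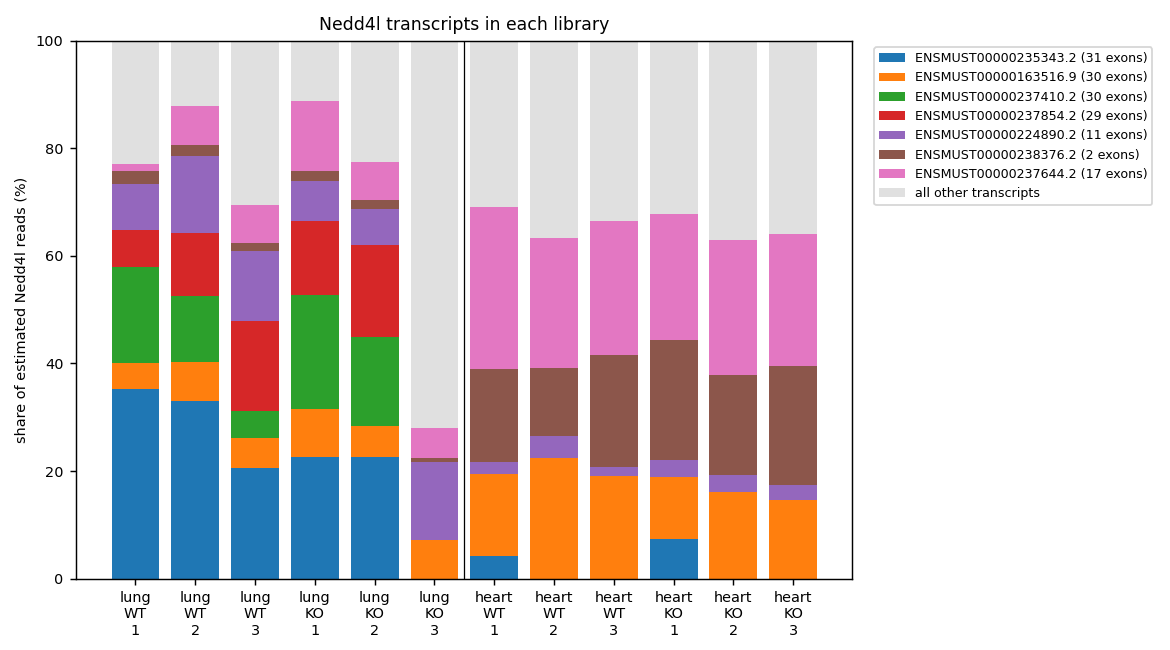
Share of the estimated Nedd4l reads (%, vertical axis) assigned to 7 transcripts and to all others in each of the 12 libraries. The brown (2 exons), pink (17 exons) and orange (30 exons) transcripts are larger in every heart, and the blue, green and red ones (31, 30 and 29 exons) are missing in lung KO replicate 3.

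The comparison of KO with WT mice asked whether loss of Adam19 changed these genes. No member passed the thresholds in limma, with 0 of 10 in the lung and 0 of 7 in the heart, where Scnn1b, Scnn1g and Aqp3 were too low to be tested. The same counts were 0 and 0 with limma-voom. Over all genes 0.0665% were called in the lung and 0.085% in the heart, so calls were rare in both. At an unadjusted p under 0.05 there was 1 member in each organ, Aqp4 in both.

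Aqp4 lay at 6.87, 7.17 and 8.03 in WT lungs and at 7.77, 8.25 and 8.27 in KO lungs. In hearts it lay at 7.13, 6.96 and 7.28 in WT and at 7.97, 7.73 and 7.72 in KO mice. The KO hearts were all above the WT hearts, while in the lung the highest WT value, replicate 3, was above the lowest KO value. The difference was 0.68 (95% interval 0.28 to 1.08, unadjusted p = 0.00382, adjusted p = 0.456, limma) in the heart, or 1.6-fold. In the lung it was 0.74 (0.04 to 1.44, unadjusted p = 0.0406, adjusted p = 0.82, limma), or 1.67-fold, and 1.08 without WT replicate 3 (adjusted p = 0.478). The difference between the effects in the 2 organs was 0.06 (95% interval −0.76 to 0.89, adjusted p = 0.975, limma). In the heart 7.82% of all genes had every KO above every WT library.

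The Aqp4 reads were divided between 2 coding transcripts. ENSMUST00000079081.8 (5 exons) took 98.4%, 31.1% and 100% of them in KO hearts and 21.0%, 15.6% and 0% in WT hearts. ENSMUST00000238946.2 (4 exons) took 0%, 68.9% and 0% in KO hearts and 72.3%, 84.4% and 100% in WT hearts. The groups did not overlap in these shares, though KO replicate 2 (31.1% and 68.9%) lay near WT replicate 1 (21.0% and 72.3%). Together the 2 shares make up most of the gene, so they are not separate observations. Shares were not tested between genotypes, and how often other transcripts show such a gap was not counted. In lungs ENSMUST00000079081.8 took 9.44%, 0% and 39.7% in WT and 20.8%, 4.35% and 0% in KO mice. As single transcripts, the difference between KO and WT hearts was 4.26 (standard error 1.36, adjusted p = 0.811, limma) for ENSMUST00000079081.8 and −4.45 (standard error 1.99, adjusted p = 0.811) for ENSMUST00000238946.2. The hearts held between 73.6 and 282.1 estimated Aqp4 reads each. Aqp4 is high in glia, and the 4 glial and nerve markers summed to 6.04 to 7.62 in WT and 6.97 to 7.65 in KO hearts, which overlapped. The part of any cell type in the heart Aqp4 values was not tested.

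Aqp3 was 1.40 higher in KO lungs (95% interval −0.01 to 2.81, unadjusted p = 0.051, adjusted p = 0.829, limma). Lung KO replicate 2 was highest at 6.14 and lung WT replicate 3 lowest at 2.62, and the difference was 0.90 without the first and 0.85 without the second. Scgb3a1, a secretoglobin of the larger airways, was highest in the same lung, at 11.91, with 8.35 to 9.52 in WT lungs and 9.66 and 10.23 in the other KO lungs. The 4 airway secretory markers together lay at 17.76, 18.32 and 17.59 in WT lungs and at 18.35, 18.61 and 18.61 in KO lungs. These sums did not overlap, but WT replicate 2 (18.32) lay close to KO replicate 1 (18.35). Scgb1a1 alone did overlap, with 18.12 in WT replicate 2 and 18.11 in KO replicate 1. Among single genes, 6.41% of all lung genes had every KO above every WT library, and sums of markers have no such share here. The basal marker Krt5 was also highest in KO replicate 2 (3.39), but every lung was below the value needed for testing. Of the 4 basal and squamous markers 0 were tested in the lung. Scgb1a1 had another order, highest in KO replicate 3 (18.41), with 18.32 in KO replicate 2. Of the airway secretory markers, 0 of 4 passed the thresholds in the lung and 3 had an unadjusted p under 0.05 (limma). Of all lung genes 5.93% had such a p. The part of airway tissue in the Aqp3 and Aqp4 values was not tested.

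Aqp1 was higher in all 3 KO lungs than in all 3 WT lungs, where 6.41% of all genes had this pattern, but the difference of 0.56 (95% interval −0.20 to 1.32, adjusted p = 0.841, limma) fell to 0.11 (adjusted p = 0.819) without lung WT replicate 3. For ENaC the KO effect in the lung was 0.22 (95% interval −0.40 to 0.85) for Scnn1a, 0.15 (−0.29 to 0.60) for Scnn1b and −0.07 (−0.42 to 0.28) for Scnn1g. These intervals still hold changes of up to 1.8-fold, 1.52-fold and 1.21-fold upward. Without WT replicate 3 the Scnn1a value was −0.11. Cftr stood at −0.26 (−0.92 to 0.40) in lungs, or 0.09 without WT replicate 3, and at −0.89 (−1.95 to 0.17, adjusted p = 0.725) in hearts. Slc12a2 stood at −0.13 (−0.47 to 0.20) in lungs and 0.01 (−0.26 to 0.28) in hearts, Atp1b1 at −0.19 (−0.64 to 0.26) and −0.06 (−0.42 to 0.30), and Nedd4l at −0.02 (−0.55 to 0.51) and −0.16 (−0.55 to 0.24). The difference of the KO effect between lung and heart passed the thresholds for 0 of 10 members, with 0 at an unadjusted p under 0.05, while 0.00566% of all genes were called.

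Single transcripts gave no call either. Of 25 member transcripts in the lung fit and 16 in the heart fit, 0 passed the thresholds in limma, where 0.0841% of lung and 0.0626% of heart transcripts did. At an unadjusted p under 0.05 there was 1 in each organ, ENSMUST00000238946.2 of Aqp4 in lungs, at 0.90 (standard error 0.31, adjusted p = 0.812), and ENSMUST00000079081.8 of Aqp4 in hearts.

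The neighbours of these genes in the same transport system, a list of 83 genes in 10 role groups, also gave no call between genotypes, with 0 calls among 70 lung genes and 0 among 61 heart genes (limma). At an unadjusted p under 0.05 there were 7 in each organ, where 5.93% of all genes in the lung and 7.46% in the heart had such a p. Between the organs 73.0% of 74 passed the thresholds, against 51.3% of all genes, with 32 higher in the lung and 22 lower. The median difference of the list was 0.49, and that of all genes 0.31.

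ENaC is switched on by membrane proteases, and 6 of 7 proteases and inhibitors were higher in the lung and 1 lower. The serine protease Tmprss2 lay at 10.64 ± 0.13 in lungs and 1.24 ± 1.46 in hearts (SD, n = 6), a difference of 9.40, and the protease inhibitor Spint1 differed by 8.96, while the proprotein convertase Furin was lower by −0.72. Among regulators of ENaC turnover, 4 of 9 were higher and 2 lower. Sgk1, the kinase that restrains Nedd4l, differed by 1.97 and the ubiquitin adaptor Ndfip2 by 0.96, and Cnksr3 by −1.78 and the deubiquitinase Usp10 by −0.61. Of 6 steroid and adrenergic genes, 2 were higher, among them the steroid dehydrogenase Hsd11b1 (3.44), and the mineralocorticoid receptor Nr3c2 was lower (−0.88).

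The sodium pump group was divided, with 5 of 12 higher in the lung and 5 lower. Fxyd3 (3.33) was among the higher ones, and the pump regulator phospholemman, Fxyd1 (−2.67), among the lower ones. Of 8 genes for kinases that control chloride cotransporters and their MO25 scaffolds, 5 were lower in the lung, led by the kinases Wnk2 (−5.32) and Stk39 (−3.32), which activates Slc12a2, and the scaffold Cab39l was higher (1.01). Of 6 cation-chloride cotransporters, 3 were higher, among them Slc12a9 (1.20), and 2 were lower, Slc12a7 (−2.48) and Slc12a4 (−0.61).

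Of 10 chloride and bicarbonate genes, 4 were higher and 3 lower. The chloride channel Slc26a9 differed by 7.74 and the anion exchanger pendrin, Slc26a4, by 5.44, against −2.39 for Slc26a6 and −1.94 for Slc26a3. Of 5 other aquaporins tested, 2 were higher, the alveolar type 1 water channel Aqp5 (9.0, with 11.77 ± 0.42 in lungs and 2.77 ± 1.22 in hearts) and Aqp11 (1.21), and the glycerol channel Aqp7 was lower (−4.29). Of 6 potassium channel genes, 3 were higher, among them Kcne2 (7.40) and Kcnj15 (4.07), and the cardiac channel subunit Kcne1 was lower (−8.72). Of 5 sodium-proton exchange genes, the scaffolds Nherf1 (2.48) and Nherf2 (1.64) were higher and the exchanger Slc9a2 was lower (−2.02). All these differences are lung minus heart on the log2 scale from limma, and the adjusted p of each named gene was 0.0202 or lower.

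**Figure D5:**
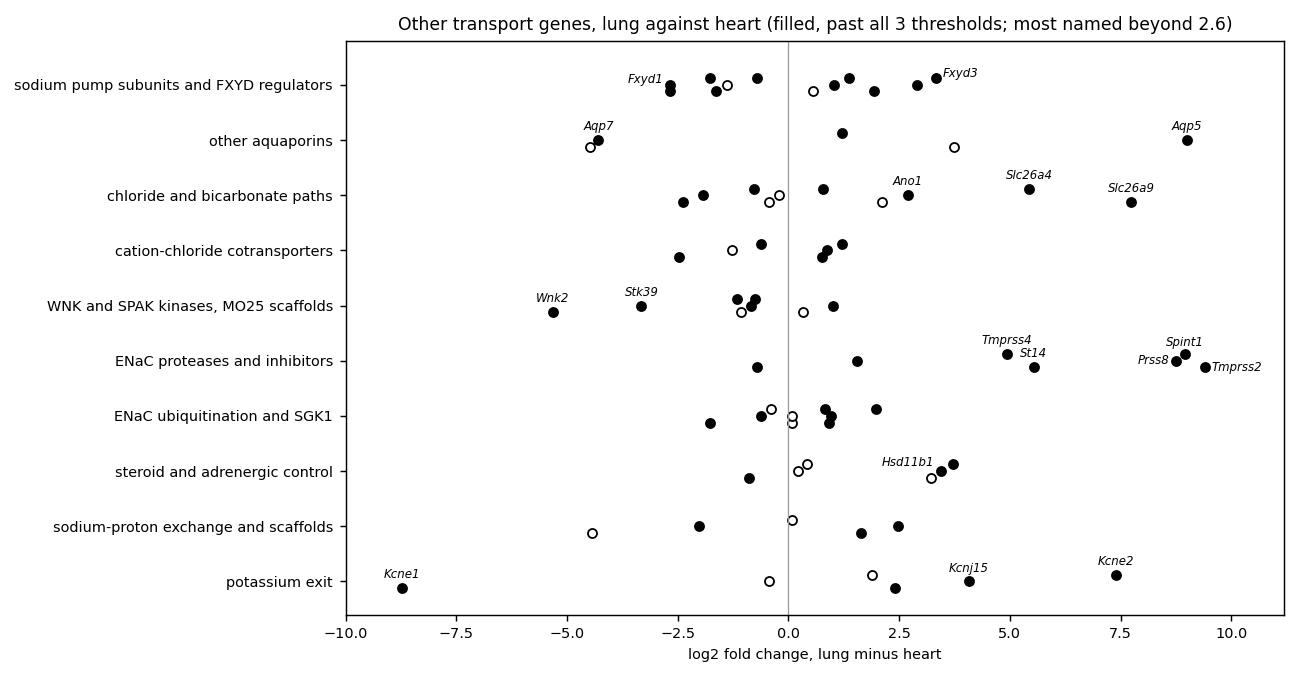
Lung minus heart log2 fold changes (horizontal axis) of the 74 tested transport genes outside the 10 members, in 10 role groups, with filled points past all 3 thresholds and names for most of those beyond 2.6. The protease group lies almost wholly on the lung side, and the kinase group mostly on the heart side.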

How the data were processed

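RNA of lung and heart from 3 WT and 3 Adam19 KO mice was measured in 12 stranded total RNA libraries. The authors quantified transcripts of GENCODE vM33 (mm39) with Salmon, and the processing notes also name cutadapt, STAR and limma 3.42.2. The authors deposited log2 values: transcript values are log2(1 + estimated count), and gene values carry a further shift for each library. The shift was recovered here from genes with 1 transcript, lay between −0.63 and 0.80, and held within 0.01 for at least 94.7% of them. Its method is not given in the sources used here. Gene values of genes with several transcripts are not the log2 of the summed reads.

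Gene values were tested with limma 3.58.1 (R 4.3.3; lmFit, eBayes with a trend) as deposited. A gene entered the test if 3 or more of the libraries fitted reached 3.46, which is log2(1 + 10). A call needed an adjusted p (Benjamini-Hochberg over all genes tested) under 0.05, a fold of at least 1.5 and a larger group mean of at least 6. KO and WT were compared within each organ, and lung with heart, and the KO effects between organs, in 1 model of 4 groups. Transcripts were tested the same way after adding the library shift. Transcript shares were compared with exact permutation tests (scipy 1.17.1), paired by mouse. With 3 mice against 3, an exact test of a single value cannot go below 0.1. The main limma fits were tried on simulated data with known changes, and the permutation tests on made-up values with known answers.

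The pairing of lung and heart comes from the mouse identifiers in the labels. Each gene's deviation from its group mean was correlated between lung and heart over 17666 genes, and r was 0.049, 0.136 and −0.024 in WT and 0.020, −0.068 and −0.036 in KO replicates 1, 2 and 3. Replicates are separate mice.

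All 10 members are named, and of the other 83 transport genes those past the thresholds between genotypes and, between organs, up to 2 per role group and direction with the largest change, a few of which are not reported here. The member transcripts named hold at least 10% of their gene in an organ, and not all that do are named. The members, the transport list and 12 lists of cell type markers were chosen with earlier results of these data known. Coordinates come from the GENCODE vM39 annotation of GRCm39, the assembly also called mm39. Alternatives changed the model, scaling, filter, pseudocount, trend, gene summary, block and libraries. No protein or promoter sequence was used here.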

Additional observations from a re-analysis of the deposited data

Results flagged for a closer look

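Of 20 sets of 6 values checked with Dixon's test (10 members, each in the 6 lungs and the 6 hearts, at the 95% limit), 2 held a value that stood apart, and chance gives about 1 in 20. Both were in lung WT replicate 3. Cftr was highest there at 9.87, with a gap to the next lung of 0.683 of the range, and Aqp1 was lowest there at 12.36, with a gap of 0.896 of the range. The same lung had the highest summed heart muscle markers of the lungs, 14.55 against 13.07 to 13.81 in the other 5. Its summed red blood cell markers, 16.66, were below those of lung KO replicate 1 (17.16) and above the other 4 (12.85 to 14.97). The part of these markers in the Cftr and Aqp1 values was not tested.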

How the results depend on the processing

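Under the 15 to 17 alternatives tried for each comparison, 0 members passed the thresholds between genotypes in the lung, in the heart or in the difference between them. The counts of 5 members higher and 1 lower in the lung than in the heart were the same under limma-voom, both other scalings, no filter, a pseudocount of 5, summed transcripts, no trend and the replicate block (9076 genes called in all with the replicate block, against 9070). Asking for log2(1 + 10) in every library left 1 member higher, Slc12a2, because the genes that are low in hearts were no longer tested. It left 1 gene called in the lung (against 11) and 7 in the heart (against 13). In WT mice alone 0 members were lower (Atp1b1 at −0.54), and in KO mice alone Aqp1 passed at 0.79. Leaving out 1 mouse gave 5 to 6 members higher and 0 to 1 lower, 6 to 12 genes called in the lung and 0 to 7 genes called for the difference of the KO effects, which was 0 with median scaling and 2 with the replicate block, against 1. With the unpaired test 9 transcript shares passed, against 0 with the paired test.

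For Nedd4l, the difference between organs was 0.25 with summed transcripts (adjusted p = 0.0145) and −0.49 with median scaling (adjusted p = 0.0133, limma), against −0.27, so both directions had an adjusted p under 0.05. Summed transcripts gave 0.05 for its KO effect in the lung. With median scaling, the KO effect in hearts was −0.03 for Aqp1 and −0.04 for Slc12a2, and summed transcripts gave −0.04 for the Aqp4 difference of effects. The cause of these changes was not tested. Leaving out 1 mouse, the KO effect ran in the lung from −0.11 to 0.47 for Scnn1a, −0.17 to 0.00 for Scnn1g, −0.54 to 0.09 for Cftr and −0.21 to 0.24 for Nedd4l. In the heart it ran from −0.73 to 0.66 for Scnn1a, −0.04 to 0.12 for Aqp1, −0.03 to 0.07 for Slc12a2 and −0.18 to 0.03 for Atp1b1. The difference of effects ran from −0.49 to 0.89 for Scnn1a, −1.14 to 0.54 for Scnn1b, −1.09 to 0.60 for Scnn1g, −0.18 to 2.11 for Aqp3, −0.19 to 0.32 for Aqp4, −0.33 to 0.04 for Atp1b1 and −0.08 to 0.35 for Nedd4l. Depth limits the heart values of Scnn1a, Scnn1b, Scnn1g, Cftr and Aqp3, each with 109 or fewer estimated reads over 6 hearts. With 3 mice per genotype, the heart interval of Scnn1a still spans −1.84 to 1.57.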

Other observations

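Among the other transport genes, Aqp7, a channel for water and glycerol that is best known in fat cells, had the largest KO effect in the lung. It was chosen here after its values were seen. Its difference was 2.32 (standard error 0.52, unadjusted p = 0.0018, adjusted p = 0.678, limma), or 4.99-fold, and in the heart it was −0.08 (standard error 0.21). The 4 fat cell markers summed to 11.54, 10.14 and 11.38 in WT lungs and to 11.40, 12.46 and 10.66 in KO lungs, which overlapped. Fxyd1, phospholemman, differed by 0.49 in the lung (unadjusted p = 0.0267, adjusted p = 0.806) and by 0.48 in the heart (unadjusted p = 0.0243, not past the adjusted threshold, limma), and it too was chosen after its values were seen.

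The 12 marker lists gave no call between genotypes, with 0 of 51 genes tested in the lung and 0 of 46 in the heart (limma). At an unadjusted p under 0.05 there were 8 and 1. Over all genes 5.93% in the lung and 7.46% in the heart had such a p. Between the organs, 30.1% of all genes were called higher in the lung and 21.2% lower. Between the organs all 7 alveolar type 2, all 4 airway secretory, all 4 ciliated, all 4 general epithelial, 4 of 5 alveolar type 1 and all 5 endothelial markers were higher in the lung, and all 6 heart muscle markers were lower. Of the 4 mesothelial markers 3 were higher and 1 lower, and of the 4 fat cell markers and the 3 nerve and glia markers tested 1 each was lower. The 5 red blood cell markers and the 1 basal marker tested gave 0 calls.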
